A study of Mus musculus with 60 samples.

Results

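The genes of the motile cilium and of the ependymal cells that carry it were followed in cortex, striatum and cerebellum of wild-type and PON2-deficient mice. The group held 45 genes of the 20423 in the deposited counts, named as a list of axonemal genes and their regulators, and all 45 were found. They were chosen in part on measured values of these libraries, because the genotype difference was opposite in sign in striatum and in cortex. The values of that choice, the genotype differences in cortex and striatum, are therefore given as a description, with no p-value. The number of members called there stands only beside the share over all genes, and nothing is read from it. The genotype difference in cerebellum, the sex differences and the differences between regions were not used in the choice and were tested.

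A motile cilium is built around an axoneme of microtubule doublets that surround a central pair of microtubules. Dynein motors in the outer and inner arms slide neighbouring doublets, radial spokes and the central pair apparatus regulate them, and the nexin-dynein regulatory complex limits the sliding to a bend. In the adult brain such cilia are carried mainly by the multiciliated ependymal cells of the ventricle walls, where their beat moves cerebrospinal fluid, and choroid plexus epithelium also carries cilia. Foxj1 is the transcription factor that switches on the axonemal genes together with factors of the RFX family.

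The wild-type and PON2-deficient mice were homozygous littermates from crosses of heterozygotes on a C57BL/6J background, of both sexes, tested for behaviour from 3 to 4 months of age. PON2 is an intracellular lactonase with antioxidant activity, and the labels name no driver that limits its loss to a cell type. Each of the 12 groups of region, sex and genotype had 5 libraries, which gave 10 libraries per genotype in each region. Pulverised tissue was sequenced as total RNA, so each library mixes all cells of its piece of tissue. Fewer cells of a type and less RNA per cell cannot be told apart in such libraries.

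The library totals were close, from 26091911 to 28125224 counts. Levels are given as CPM, a gene's counts relative to its library's total after TMM scaling. Pon2 separated the genotypes in every region, with 39.2 to 58.9 CPM in the wild-type libraries and 0.457 to 6.91 CPM in the PON2-deficient libraries. The labelled regions matched their neuronal markers. All 10 striatal projection neuron markers were higher in striatum than in cortex, all 8 cortical excitatory markers were lower there, and all 10 granule and Purkinje markers were higher in cerebellum than in cortex. Nothing in the labels says whether equal replicate numbers mark 1 mouse, so p-values measure only how far these samples spread, which may be technical in part.

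The promoters of the members are shown first, because RFX factors and Foxj1 are the known regulators of this gene group. RefSeq start sites on GRCm38.p6 were matched for 39 of the 45 members. In the 250 bases before the start, 8 of the 39 members (20.5%) held a full RFX X-box, an inverted repeat, against 0.892% of 27025 genes (0.779% of 32851 promoters). Each sequence below runs 5′ to 3′ toward the start site on the strand of the gene, and the capitals mark the X-box.
Dnah6 (chr6:73221632-73221707, minus strand): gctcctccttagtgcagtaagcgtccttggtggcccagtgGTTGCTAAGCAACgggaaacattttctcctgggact
Dnah7a (chr1:53706789-53706881, minus strand): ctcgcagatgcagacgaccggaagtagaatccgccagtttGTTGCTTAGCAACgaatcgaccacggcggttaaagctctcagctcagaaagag
Dnah7b (chr1:46066789-46066852, plus strand): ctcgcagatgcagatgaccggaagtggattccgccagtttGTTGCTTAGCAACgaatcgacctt
Hydin (chr8:110266916-110266976, plus strand): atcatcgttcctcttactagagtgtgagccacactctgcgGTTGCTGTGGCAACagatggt
Spag16 (chr1:69826827-69826920, plus strand): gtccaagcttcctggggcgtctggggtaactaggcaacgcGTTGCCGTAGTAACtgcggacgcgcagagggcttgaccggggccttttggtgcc
Cfap44 (chr16:44394732-44394798, plus strand): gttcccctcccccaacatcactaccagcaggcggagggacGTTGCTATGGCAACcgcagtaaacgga
Cfap45 (chr1:172521071-172521129, plus strand): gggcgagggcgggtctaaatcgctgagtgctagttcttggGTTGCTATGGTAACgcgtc
Tekt4 (chr17:25471514-25471589, plus strand): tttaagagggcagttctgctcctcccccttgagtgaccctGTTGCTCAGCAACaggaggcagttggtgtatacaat
All 8 X-boxes began between 19 and 103 bases before the start. Dnah7a and Dnah7b, paralogs that share part of their transcript sequence, carried the same X-box. The 8 genes covered several roles, with 3 inner arm dyneins, the central pair genes Hydin and Spag16, and 3 genes of the doublet interior and its tethers. The shorter RFX site GTTGCC, searched on both strands and able to lie inside an X-box, was found in 33.3% of the 39 members and in 11.8% of all genes. GTTACC was found in 15.4% of the members and 6.89% of all genes. The forkhead site TGTTTAC was found in 5.13% of the members and 3.54% of all genes. Foxj1 itself was among the 6 members with no matched promoter.

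All members were low to moderate in these tissues. Averaged over the 60 libraries, 39 of the 45 exceeded 1 CPM. Per kilobase of exon, which allows genes to be compared, the levels ran from 0.0613 CPM per kb (Spag17) to 4.14 CPM per kb (Rsph9), with a median of 0.494. Rsph9, a protein of the radial spoke head, was followed by Foxj1 at 4.01 and by Drc1, a core protein of the nexin-dynein regulatory complex, at 3.5 CPM per kb. The highest mean was in striatum for 25 members, in cortex for 10 and in cerebellum for 10. The lowest mean was in cerebellum for 24 members, in cortex for 20 and in striatum for 1.

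**Figure D1:**
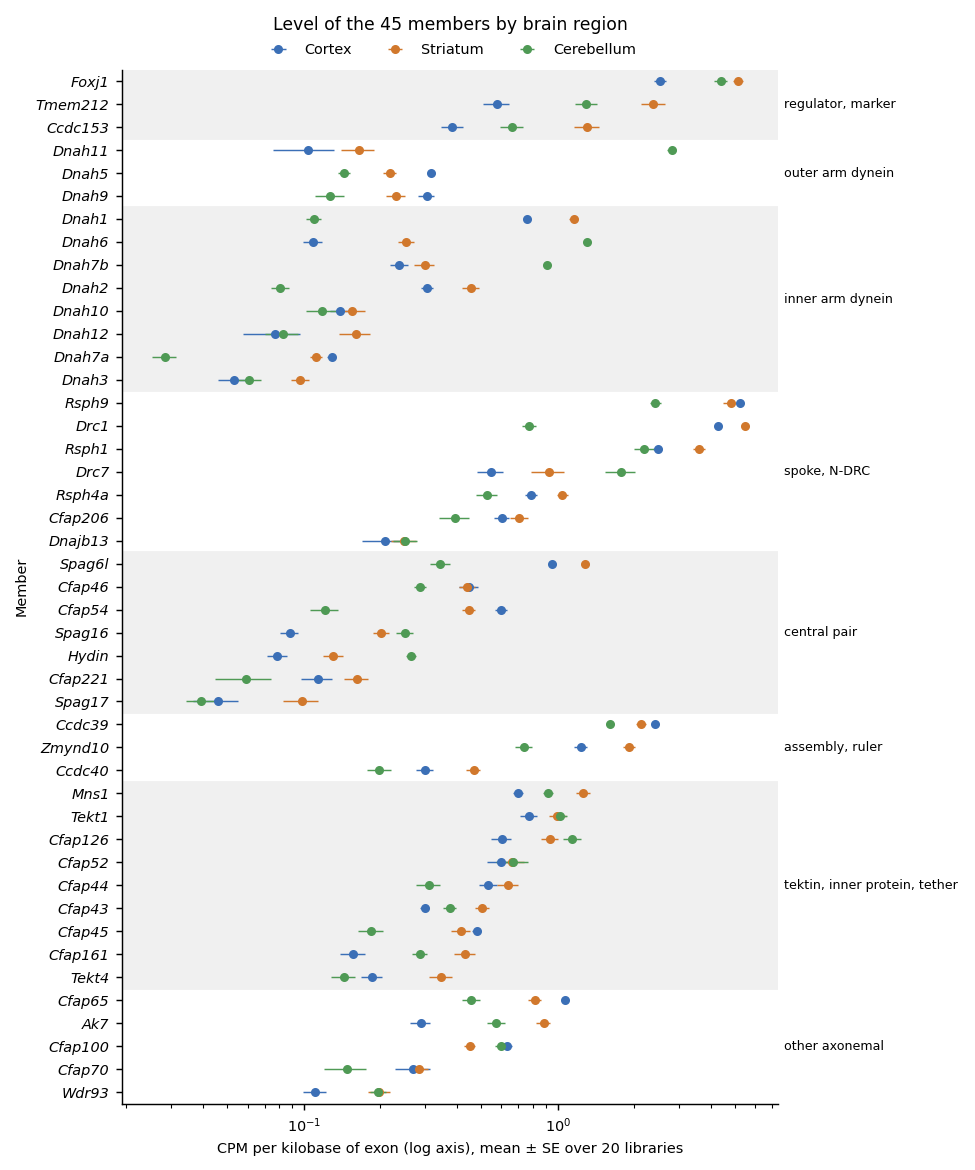
Level of each of the 45 members, grouped by role, as CPM per kilobase of exon on a log axis. Points are means over the 20 libraries of a region and bars the standard error, and Dnah11, Dnah6 and Dnah7b lie to the right in cerebellum while Dnah1, Drc1 and Dnah7a lie to the left.

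The members differed between regions in both directions, as did all genes tested. Against cortex, 28 members were higher in striatum and 5 lower in edgeR's quasi-likelihood test (adjusted p under 0.05), where 28.8% of the 20387 genes tested were higher and 28.2% lower. The median log2 difference of the 45 members was 0.55, and that of all genes 0.0054. Cerebellum was higher than cortex for 16 members (40.1% of all genes) and lower for 21 (39.5%), with a median of -0.23. It was higher than striatum for 6 members (39.7% of all genes) and lower for 32 (40.2%), with a median of -0.73. The comparisons share libraries in pairs and are not independent of each other. The members' counts were not tested against the shares over all genes.

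Foxj1, Tmem212 and Ccdc153 were higher in striatum than in cortex and in cerebellum, although for Foxj1 the call against cerebellum depended on the libraries kept. Foxj1 (chromosome 11, 116330704 to 116335399, minus strand, GRCm38) had 3.65, 6.36 and 9.19 CPM as lowest, median and highest of the 20 cortex libraries, 7.35, 12.9 and 18.4 CPM in striatum, and 7.22, 10.4 and 18.4 CPM in cerebellum. The ranges overlapped between all regions, although most striatum libraries lay above the cortex values. Foxj1 was 2.05-fold higher in striatum than in cortex (log2 1.04, SE 0.104, adjusted p = 9.56e-13) and 1.75-fold higher in cerebellum than in cortex (log2 0.81, SE 0.104, adjusted p = 5.65e-10). The step from striatum to cerebellum was small (log2 -0.23, SE 0.101, adjusted p = 0.0381). It did not pass the same test without striatum PON2-deficient male 5 (log2 -0.19, adjusted p = 0.0738). Nor did it pass without the libraries numbered 1 (log2 -0.24, adjusted p = 0.0522), 4 (-0.15, 0.241) or 5 (-0.10, 0.404). Ependymal markers outside the axoneme did not all share this order. Rarres2 did by the medians of cortex, striatum and cerebellum (4.62, 8.64 and 6.76 CPM). So did Cd24a (6.18, 10.6 and 8.61 CPM) and Tm4sf1 (9.22, 10.3 and 9.79 CPM), and the other markers of that list did not. Rarres2 was higher in striatum than in cerebellum (lower in cerebellum, log2 -0.49), whereas Hdc, Mia and Vim were higher in cerebellum than in striatum (log2 0.92, 0.68 and 2.50), and S100a6 was lower in striatum than in cortex (log2 -0.21).

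Tmem212 and Ccdc153, which mark ependymal cells in brain, showed the largest differences between striatum and cortex among the members. Tmem212 (chromosome 3, 27866066 to 27896368, minus strand) ran from 0 to 0.902 CPM in cortex, from 0.576 to 3.85 in striatum and from 0.277 to 2.01 in cerebellum. The cortex library at 0 had no read for it, which allows up to 0.115 CPM (3 counts, counting error only). It was 4.24-fold higher in striatum than in cortex (log2 2.09, SE 0.203, adjusted p = 3.51e-13). Ccdc153 (chromosome 9, 44240676 to 44247306, plus strand) had medians of 0.683 CPM in cortex, 2.30 in striatum and 1.16 in cerebellum, and was 3.36-fold higher in striatum than in cortex (log2 1.75, SE 0.184, adjusted p = 4.32e-12). Both were lower in cerebellum than in striatum, Tmem212 by a log2 difference of -0.86 and Ccdc153 by -0.99.

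The outer arm dynein heavy chains did not share a regional pattern. Dnah11 (chromosome 12, 117877982 to 118199043, minus strand) was far higher in cerebellum than elsewhere. It had 24.8, 41.0 and 55.5 CPM as lowest, median and highest of the cerebellum libraries, against 0.268, 0.695 and 8.01 CPM in cortex and 0.537, 2.12 and 4.70 CPM in striatum. No cortex or striatum library reached the lowest cerebellum library. The difference was 29.2-fold from cortex (log2 4.87, SE 0.285, adjusted p = 2.43e-22) and 17.4-fold from striatum (log2 4.12, SE 0.267, adjusted p = 1.89e-20). Its paralogs were lower in cerebellum. Dnah5 (chromosome 15, 28203752 to 28472052, plus strand) had medians of 4.94 CPM in cortex, 3.17 in striatum and 2.20 in cerebellum, and was lower in cerebellum than in cortex with no overlap of the libraries (log2 -1.14, SE 0.102, adjusted p = 4.97e-15). Dnah9 was likewise lower in cerebellum than in cortex (log2 -1.26). The exons of Dnah11 overlap those of the antisense gene Cdca7l over 4.44% of their length, and Cdca7l itself was at a median of 1.0 CPM in cerebellum and 1.05 in cortex.

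Inner arm dynein heavy chains showed the widest spread of any role, from -2.80 to 3.62 on the log2 scale between cerebellum and cortex. Dnah6 (chromosome 6, 73017606 to 73221651, minus strand) had 13.5, 17.3 and 21.6 CPM as lowest, median and highest in cerebellum, against at most 2.50 CPM in cortex and 5.01 CPM in striatum. It was 12.3-fold higher in cerebellum than in cortex (log2 3.62, SE 0.124, adjusted p = 6.52e-33) and 5.22-fold higher than in striatum. Dnah1 (chromosome 14, 31260375 to 31323896, minus strand) went the other way, with 8.15 to 12.7 CPM in cortex, 9.0 to 21.1 CPM in striatum and 0.782 to 2.27 CPM in cerebellum. It was 6.94-fold lower in cerebellum than in cortex (log2 -2.80, SE 0.0981, adjusted p = 1.76e-32) and 10.5-fold lower than in striatum (log2 -3.40). Dnah2 was lower in cerebellum than in cortex (log2 -1.92).

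Dnah7a and Dnah7b, whose promoters are shown above, went in opposite directions. Dnah7b was 3.90-fold higher in cerebellum than in cortex (SE 0.132 on the log2 scale) and Dnah7a 4.55-fold lower (log2 -2.19). Of the 31-base stretches of Dnah7a transcripts, 54.2% also occur in other genes, 43.8% in Dnah7b. Of those of Dnah7b, 40.04% occur in other genes, most often in Dnah7c (32.1%). The division of reads among these paralogs is therefore uncertain, and so are both directions. Dnah10 and Dnah3 did not pass the test between cerebellum and cortex (log2 -0.29, SE 0.220, and 0.19, SE 0.241). Dnah12 was higher in striatum than in cortex (log2 1.16) and was not called between cerebellum and cortex (log2 0.18, SE 0.270).

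**Figure D2:**
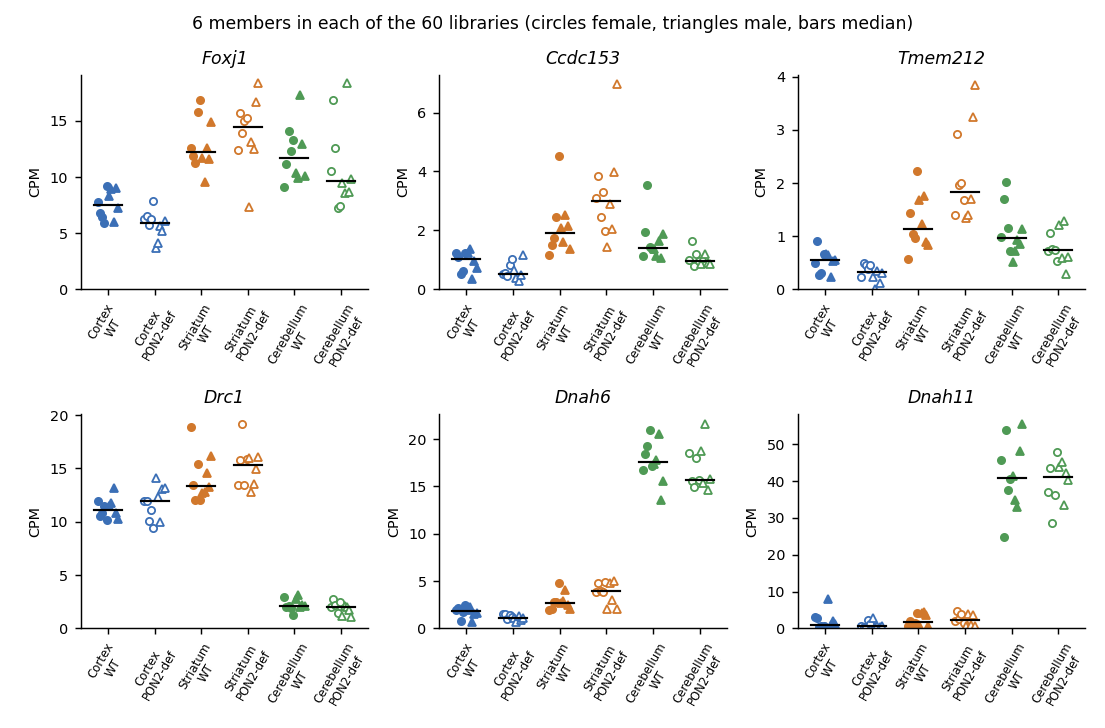
CPM of Foxj1, Ccdc153, Tmem212, Drc1, Dnah6 and Dnah11 in each of the 60 libraries, with filled symbols for wild-type (WT), open symbols for PON2-deficient (PON2-def), circles for females, triangles for males and bars for the median of 10 libraries. Cerebellum does not overlap the other regions for Drc1, Dnah6 and Dnah11, while the genotypes overlap in every panel.

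The radial spoke and nexin-dynein regulatory complex genes were mostly lower in cerebellum. Drc1 (chromosome 5, 30281388 to 30366695, plus strand) had 9.42, 11.5 and 14.1 CPM as lowest, median and highest in cortex, 11.996, 14.0 and 19.2 CPM in striatum and 1.04, 2.06 and 3.12 CPM in cerebellum. Cerebellum lay below both other regions without overlap, 5.6-fold below cortex (log2 -2.48, SE 0.0822, adjusted p = 1.08e-33) and 7.13-fold below striatum. Rsph9 (chromosome 17, 46122035 to 46144216, minus strand) was not called between striatum and cortex (log2 -0.12, SE 0.0930, adjusted p = 0.272), although it was called lower in striatum without PON2-deficient male 5 (log2 -0.19, adjusted p = 0.0374). It was 2.14-fold lower in cerebellum than in cortex (log2 -1.10, SE 0.0958, adjusted p = 2.06e-15). Drc7, another protein of the same complex as Drc1, was 3.23-fold higher in cerebellum than in cortex (log2 1.69, SE 0.279, adjusted p = 2.84e-07), although its libraries ran from 0.451 to 11.9 CPM in cerebellum. Its residual level correlated with the mean of choroid plexus markers at 0.71 in cortex, 0.82 in striatum and 0.95 in cerebellum (20 libraries each, a description), and the part of choroid plexus in its regional difference was not tested. Rsph1 and Rsph4a, further spoke head proteins, were higher in striatum than in cortex (log2 0.55 and 0.41, the latter not called without the libraries numbered 3 or 4, 0.30 and 0.31) and lower in cerebellum than in striatum (-0.73 and -0.99). Dnajb13, a protein of the spoke neck, was called in no region comparison (log2 0.44, 0.40 and -0.04). Without the libraries numbered 2 or 5 it was called higher in striatum than in cortex (log2 0.62 and 0.63).

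The central pair genes split in the same way. Spag6l (chromosome 16, 16753016 to 16829456, minus strand) had 3.13 to 5.56 CPM in cortex, 4.23 to 8.12 in striatum and 0.317 to 2.75 in cerebellum, so cerebellum lay below both without overlap (log2 -1.47 against cortex, SE 0.129, adjusted p = 3.15e-15). Cfap54 was 5.21-fold lower in cerebellum than in cortex (log2 -2.38) and also lower in striatum than in cortex (log2 -0.43). Hydin, a very large protein of the central pair, was higher in cerebellum than in cortex (3.43-fold, log2 1.78) and than in striatum (log2 1.03). Spag16 was higher than cortex in striatum (log2 1.2) and in cerebellum (log2 1.5). Cfap46 (chromosome 7, 139600951 to 139683817, minus strand) had medians of 3.90 CPM in cortex, 4.10 in striatum and 2.72 in cerebellum, and was lower in cerebellum than in cortex (log2 -0.64, SE 0.163, adjusted p = 0.000401).

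Genes for assembly and for the length ruler of the axoneme were lower in cerebellum than in cortex, in 3 of 3 cases (39.5% of all genes). Ccdc39 (chromosome 3, 33812362 to 33844310, minus strand), which with Ccdc40 sets the repeat along the doublets, had medians of 17.8 CPM in cortex, 15.9 in striatum and 11.6 in cerebellum (log2 -0.58 against cortex, SE 0.0684, adjusted p = 5.48e-11). Its exons overlap the antisense gene Ttc14, at a median of 181 CPM in cortex, over 16.9% of their length, and reads of the overlap cannot be assigned without strand. Zmynd10 (chromosome 9, 107547298 to 107551319, plus strand), which helps to preassemble dynein arms in the cytoplasm, had medians of 2.60 CPM in cortex, 4.03 in striatum and 1.42 in cerebellum. It was higher in striatum than in cortex (log2 0.64, SE 0.126, adjusted p = 1.70e-05) and lower in cerebellum than in cortex (log2 -0.74, SE 0.132, adjusted p = 1.37e-06).

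Among tektins, microtubule inner proteins and doublet tethers, 6 of 9 were called higher in striatum than in cortex (28.8% of all genes). None was called lower (28.2% of all genes). Cfap161, an inner protein, was 2.93-fold higher (log2 1.55, SE 0.169, adjusted p = 1.42e-11). Mns1 (chromosome 9, 72438011 to 72462025, plus strand), another inner protein, had 2.58, 3.53 and 5.14 CPM as lowest, median and highest in cortex, 3.87, 6.86 and 11.7 in striatum and 3.13, 4.93 and 7.25 in cerebellum (striatum against cortex log2 0.85, SE 0.0996, adjusted p = 1.44e-10). Over 53.0% of its exon length Mns1 overlaps the antisense gene Tex9, at medians of 8.95, 10.2 and 11.7 CPM in the same order of regions, so its level is uncertain. Tekt1 (chromosome 11, 72344722 to 72362442, minus strand) had medians of 1.09 CPM in cortex, 1.51 in striatum and 1.66 in cerebellum. It was higher in striatum than in cortex (log2 0.39, SE 0.138, adjusted p = 0.0140), but not called without the libraries numbered 2 or 5 (log2 0.36 and 0.22). Tekt1 did not differ beyond its error between cerebellum and striatum (log2 0.02, SE 0.135, adjusted p = 0.885). Cfap45 was lower in cerebellum than in cortex (log2 -1.39) and Cfap126 higher (log2 0.95).

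Ak7, an adenylate kinase of motile cilia, was higher in striatum than in cortex, with a narrow gap between the libraries. It (chromosome 12, 105705976 to 105782447, plus strand) had 0.475, 1.25 and 2.06 CPM as lowest, median and highest in cortex and 2.11, 3.67 and 5.44 CPM in striatum (log2 1.61, SE 0.158, adjusted p = 3.98e-13). Cerebellum, at 0.992 to 4.03 CPM, overlapped both. Cfap65 (chromosome 1, 74902071 to 74935599, minus strand) had medians of 8.39 CPM in cortex, 6.36 in striatum (lower than cortex, log2 -0.40, SE 0.127, adjusted p = 0.00535) and 3.25 in cerebellum (lower than cortex, log2 -1.23, SE 0.130, adjusted p = 1.75e-12). Cfap100, a factor of inner arm regulation, was lower in striatum than in cortex (log2 -0.49) and higher in cerebellum than in striatum (log2 0.42).

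Other genes of the axoneme that are not members also differed in both directions. Of 75 such genes, 31 were higher and 13 lower in striatum than in cortex, 28 higher and 35 lower in cerebellum than in cortex, and 16 higher and 41 lower in cerebellum than in striatum. Over all genes tested, the shares called higher and lower were 28.8% and 28.2%, 40.1% and 39.5%, and 39.7% and 40.2% in the same order. The counts were not tested against these shares. Ccno, a regulator of centriole amplification in multiciliated cells, was higher in striatum than in cortex (log2 1.55) and lower in cerebellum than in striatum (log2 -3.76). Trp73, a transcription factor upstream of Foxj1, was higher in cerebellum than in cortex (log2 2.48). Efcab6 was lower in cerebellum than in cortex (log2 -6.04). The 40 genes of intraflagellar transport and the primary cilium, which nonmotile cilia of neurons share, had a median of 0.06 between striatum and cortex, with 13 called higher and 12 lower. Choroid plexus markers were much higher in cerebellum than in cortex (20 of 20 called, median 2.25), and their part in the level of the members was not tested.

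PON2 deficiency was tested for the members in cerebellum. Of 44 members tested, 33 were lower and 11 higher in the PON2-deficient mice, with a median log2 difference of -0.18 beside 0.00090 over the 18710 genes tested. None was called by edgeR's quasi-likelihood test (0.0321% of all genes were called), 4 had an unadjusted p under 0.05, and DESeq2 also called 0. The share over all genes is at adjusted p under 0.05, so nothing is read from the 4. The smallest p belonged to Dnajb13, with 0.492, 0.835 and 1.42 CPM as lowest, median and highest of 10 wild-type libraries and 0.106, 0.489 and 0.850 CPM in the deficient mice (log2 -0.96, SE 0.253, adjusted p = 0.149). Ccdc153 followed, with 1.07, 1.41 and 3.54 CPM against 0.799, 0.973 and 1.63 CPM (log2 -0.64, SE 0.193, adjusted p = 0.187). The genotypes overlapped for both genes. Dnajb13 overlaps the antisense gene Ucp2, at a median of 47.6 CPM in cerebellum, over 11.2% of its exons, so its level and difference are uncertain. Foxj1 had 9.15, 11.7 and 17.3 CPM in wild-type and 7.22, 9.62 and 18.4 CPM in PON2-deficient cerebellum (log2 -0.14, SE 0.168, 95% interval -0.47 to 0.19, adjusted p = 0.828). Dnah11, the member highest in cerebellum relative to cortex, differed by -0.06 (95% interval -0.30 to 0.18).

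By role, the cerebellar differences were negative for 7 of 7 spoke and regulatory complex genes (median -0.32), for 3 of 3 of Foxj1, Ccdc153 and Tmem212 (median -0.43) and for 8 of 9 tektins, inner proteins and tethers (median -0.22). They were mixed for inner arm dyneins (5 of 8 negative, median -0.04) and assembly factors (1 of 3 negative, median 0.0019). None of these passed the test gene by gene. Choroid plexus markers were lower in 20 of 20 genes in cerebellum (median -0.35, 0 called), and their summed level ran from 600 to 2362 CPM in wild-type and from 44.5 to 2821 CPM in PON2-deficient libraries. In 2 PON2-deficient cerebellum libraries, female 5 and male 4, Ttr, the most abundant choroid plexus transcript, was at 3.24 and 3.15 CPM against a median of 950 CPM over the 20 libraries. The members' mean log2 CPM was lowest in these libraries, 0.345 and 0.166, where the wild-type libraries lay between 0.791 and 1.33. Without both, the median difference of the members was -0.0853 and 32 of 45 were lower, and with the choroid plexus markers' mean as a covariate it was -0.04 with 27 of 44 lower. The part of choroid plexus tissue in the cerebellar difference was not tested otherwise.

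No member passed the test for sex. The shares of all genes given here are at adjusted p under 0.05. Counts of members at unadjusted p were not compared with all genes, and nothing is read from them. In cortex 0 of 44 members were called between males and females (0.0896% of all genes, 4 members at an unadjusted p under 0.05), in striatum 0 of 45 (0.105% of all genes, 0 members at an unadjusted p under 0.05) and in cerebellum 0 of 44 (0.118% of all genes, 3 members at an unadjusted p under 0.05), all with edgeR, and DESeq2 called 0 as well. The smallest p belonged to Dnah12 in cortex (males minus females log2 -1.21, SE 0.444, adjusted p = 0.343) and in cerebellum (log2 -0.73, SE 0.285, adjusted p = 0.586). The genotype difference was not shown to depend on sex either. The interaction called 0 members in cortex, striatum and cerebellum with edgeR and with DESeq2, where edgeR called 0% of all genes in each region, and 6, 3 and 4 members had an unadjusted p under 0.05. The smallest p of a member was that of Cfap100 in cortex (log2 -0.52, SE 0.201, adjusted p = 0.426), of Cfap54 in striatum (log2 -0.77, SE 0.306, adjusted p = 0.880) and of Cfap54 in cerebellum (log2 1.11, SE 0.366, adjusted p = 0.967).

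In cortex, a contrast on which the members were chosen, 37 of 44 members were lower in PON2-deficient mice, with a median log2 difference of -0.21 (all genes -0.00056). Foxj1 had 5.89, 7.53 and 9.19 CPM as lowest, median and highest in wild-type and 3.65, 5.91 and 7.89 CPM in PON2-deficient cortex (log2 -0.41, SE 0.106). Tmem212 had medians of 0.542 and 0.324 CPM (log2 -0.89, SE 0.320), and Ccdc153 of 1.02 and 0.530 CPM. The genotypes overlapped for all 3 genes. Cfap161 had 0.261, 0.689 and 0.939 CPM against 0.153, 0.299 and 0.561 CPM (log2 -1.13, SE 0.218), and Dnajb13 0.152, 0.820 and 2.16 CPM against 0.0767, 0.302 and 0.523 CPM (log2 -1.59, SE 0.349). Higher values were few, up to 0.12 for Zmynd10. All 9 tektins, inner proteins and tethers were lower (median -0.30), and the abundant Drc1, Dnah5 and Ccdc39 were close to 0 (0.05, -0.01 and -0.02). With edgeR 0 members were called (0.0316% of all genes), a count from the contrast of the choice that carries no weight.

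In striatum, the other contrast of the choice, 41 of 45 members were higher in PON2-deficient mice, with a median of 0.24 (all genes 0.0098). Foxj1 had 9.55, 12.2 and 16.9 CPM in wild-type and 7.35, 14.4 and 18.4 CPM in PON2-deficient striatum (log2 0.13, SE 0.128). Ccdc153 had 1.15, 1.91 and 4.53 CPM against 1.45, 3.00 and 6.96 CPM (log2 0.59, SE 0.264), and Tmem212 0.576, 1.14 and 2.23 CPM against 1.34, 1.82 and 3.85 CPM (log2 0.76, SE 0.249). The ranges overlapped for each. Tekt4, a tektin, had the highest value (0.298, 0.516 and 0.679 CPM against 0.483, 0.794 and 1.53 CPM, log2 0.88, SE 0.206). Dnah2 had the lowest (log2 -0.18, SE 0.203). All 7 spoke and regulatory complex genes and all 9 tektins, inner proteins and tethers were higher, with medians of 0.21 and 0.37. With edgeR 0 members were called (0.0105% of all genes), which again carries no weight. The highest PON2-deficient values of Foxj1, Ccdc153 and Tmem212 all came from male 5. That library had the fewest genes detected of all 60 (19944) and a length slope, the trend of its log2 levels with transcript length, of -0.124, where the other PON2-deficient striatum libraries lay between 0.00198 and 0.0187. Without it the median of the members was 0.22.

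**Figure D3:**
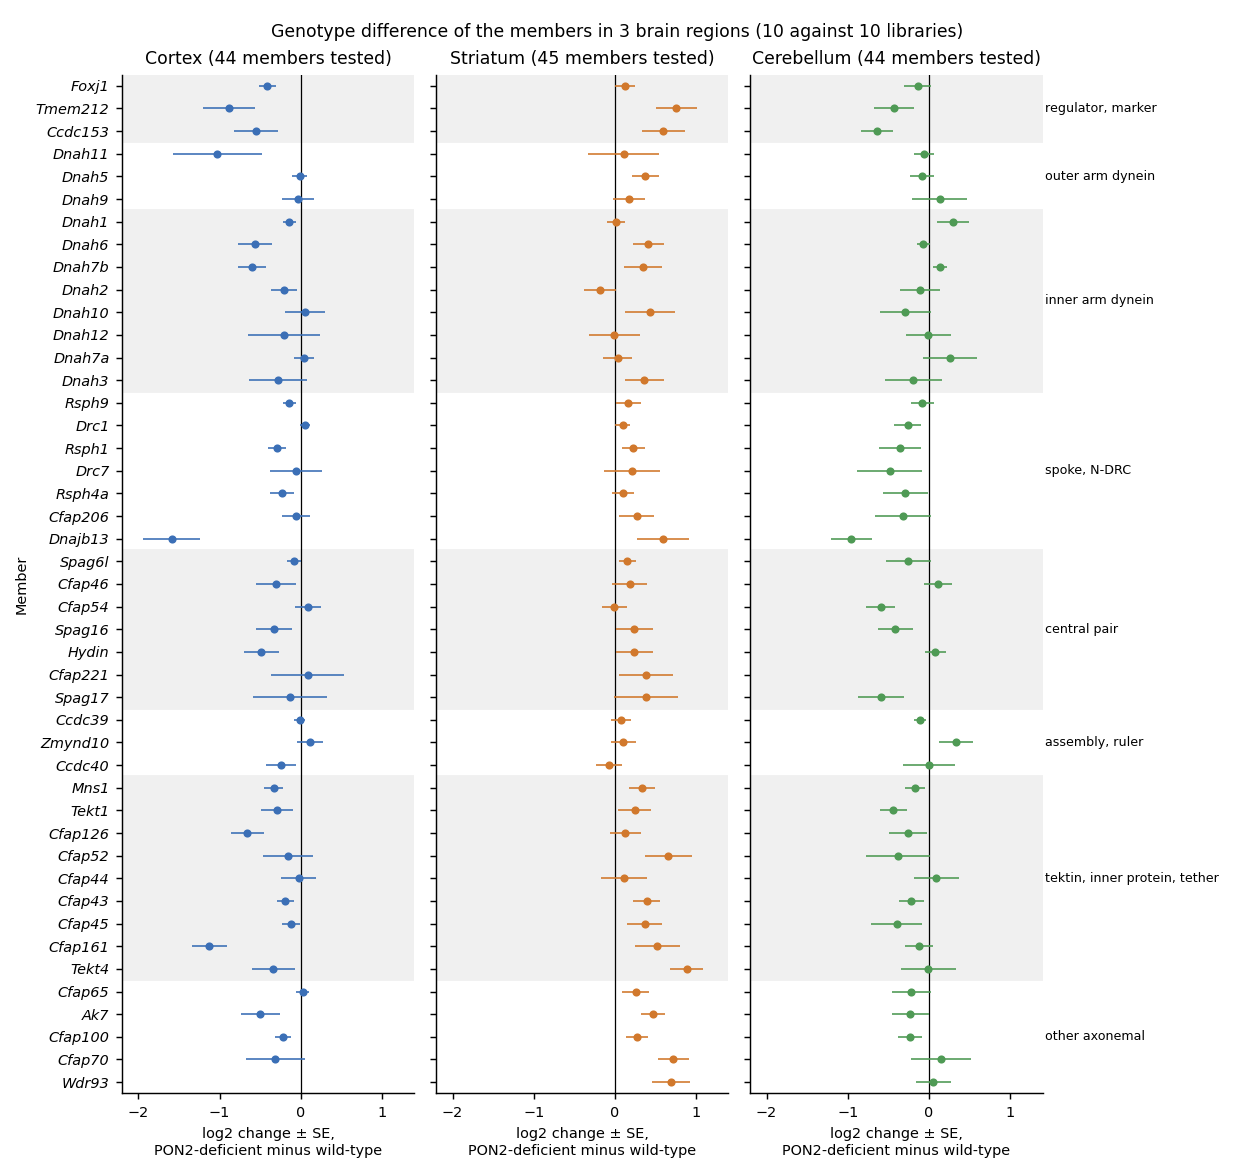
Log2 difference between PON2-deficient and wild-type mice for each member, with the standard error, in cortex, striatum and cerebellum. Points lie mostly left of 0 in cortex (37 of 44) and cerebellum (33 of 44) and right of 0 in striatum (41 of 45).

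Within each sex the medians had the same sign as over both sexes. They were -0.12 in females and -0.31 in males in cortex, 0.28 and 0.25 in striatum, and -0.16 and -0.14 in cerebellum. Each gene's difference over both sexes is the average of its differences in females and males. Cortex and striatum are the contrasts of the choice, so the shared sign there carries no weight. Foxj1 in cortex differed by -0.14 (SE 0.149) in females and -0.68 (SE 0.150) in males, a difference between the sexes that was not called (adjusted p = 0.437). In cortex males the length slope went with genotype, from -0.0337 to -0.00348 in wild-type and from -0.00696 to 0.0135 in PON2-deficient libraries. Its part in the male values was not tested, and with the length slope in the model over both sexes the cortex median was -0.15.

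Other axonemal genes had the same sign as the members in most cases, with exceptions. Of the tested genes on that list of 75, which was drawn up with earlier results of these data known, 52 of 69 were lower in cortex (median -0.10), 54 of 74 higher in striatum (0.11) and 48 of 67 lower in cerebellum (-0.06). None was called by edgeR. The 11 multiciliation regulators split in striatum, with 5 higher and 6 lower (median -0.0096), and the further dynein genes split in cerebellum, with 12 of 21 higher (median 0.02). Single genes in striatum ran from -0.74 to 0.97. Dnali1, an inner arm light chain, differed by -0.52 in cortex, 0.43 in striatum and -0.41 in cerebellum. Genes of intraflagellar transport and the primary cilium stayed near 0, with 20 of 40 lower in cortex (median -0.0014), 24 of 40 higher in striatum (0.03) and 29 of 40 higher in cerebellum (0.03).

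Markers of cells near the ventricles were examined beside the members. Ependymal genes outside the axoneme were lower for 8 of 11 in cortex (median -0.14), higher for 9 of 11 in striatum (0.19) and lower for 8 of 11 in cerebellum (-0.11), with 0 called in each. Among them Cd24a differed by -0.40 in cortex and 0.34 in striatum, and Mia by 0.79 in striatum. Their summed level ran from 471 to 504 CPM in wild-type and from 464 to 517 CPM in PON2-deficient cortex, from 327 to 410 and from 363 to 419 CPM in striatum, and from 460.0 to 517 and from 465 to 517 CPM in cerebellum. Celsr2 and Nudt4, at cortex medians of 223 and 166 CPM, made up most of these sums. The list's mean log2 CPM was 3.41 in wild-type and 3.26 in PON2-deficient cortex, 3.46 and 3.66 in striatum, and 3.90 and 3.78 in cerebellum. All 12 markers of subventricular progenitors and neuroblasts were higher in striatum (median 0.27, 0 called), with summed levels of 120 to 182 CPM in wild-type and 105 to 213 CPM in PON2-deficient libraries. Of 11 thalamic markers, 10 were lower in striatum (median -0.41, 0 called, 140 to 562 CPM against 143 to 276 CPM). Choroid plexus markers were lower for 20 of 20 in cortex (median -0.84, 0 called, 36.9 to 524 CPM against 28.9 to 562 CPM) and split 10 to 10 in striatum. In cortex, 9 of 11 thalamic markers (median -0.13), 9 of 12 subventricular markers (-0.11) and 9 of 9 granule and Purkinje cell markers (-0.12) were also lower, and 8 of 8 cortical excitatory markers were higher (0.08), with 0 called in each list. Astrocyte markers stayed near 0 in cortex (median 0.0070) and striatum (-0.0099). The part of tissue composition in the genotype differences was not tested.

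**Figure D4:**
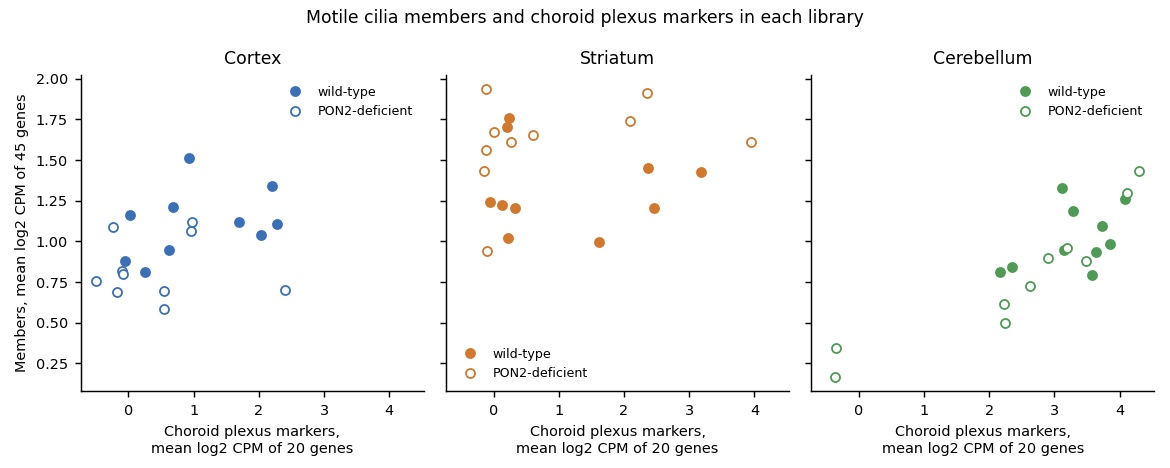
Mean log2 CPM of the 45 members against that of 20 choroid plexus markers in each library, filled for wild-type and open for PON2-deficient. In cerebellum the 2 PON2-deficient libraries with almost no choroid plexus signal have the lowest members' means (0.166 and 0.345), while the highest members' means of striatum occur at both low and high choroid plexus levels.

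The members varied together from library to library, more closely in striatum and cerebellum than in cortex. Group means of sex and genotype were removed and the residual log2 CPM of the 20 libraries of a region correlated, as a description with no test, since all genes of a library share its tissue piece and depth. The median correlation between members was 0.15 in cortex, 0.31 in striatum and 0.31 in cerebellum, where the median over all gene pairs was 0 in cortex and -0.0005 in the other regions. With Foxj1 the other members had a median correlation of 0.14 in cortex, 0.38 in striatum and 0.52 in cerebellum. A correlation above 0.5 was reached by 7 of 43 members in cortex, 13 of 44 in striatum and 22 of 43 in cerebellum, against 2.21%, 6.33% and 4.75% of all genes. Without the 2 cerebellum libraries low in Ttr, 23 of 43 members were above 0.5 (median 0.56). In those 18 libraries Foxj1 still correlated with the mean of choroid plexus markers at 0.81, and the members had a median of 0.37 with it. The part of choroid plexus in this co-variation was not tested.

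Members differed in how closely they followed Foxj1. Ak7 had correlations of 0.37 in cortex, 0.77 in striatum and 0.84 in cerebellum, Cfap43 of 0.55, 0.72 and 0.71, and Cfap161 of 0.52, 0.63 and 0.59. The spoke genes Rsph1 and Rsph9 followed Foxj1 in cerebellum (0.86 and 0.78) and striatum (both 0.63), and not in cortex (-0.34 and -0.36). The striatum correlations included PON2-deficient male 5, with a length slope of -0.124. That library was the highest of striatum for Foxj1 (18.4 CPM) and Rsph9 (15.4 CPM), and its part in these correlations was not tested. Dnah1 (-0.33, -0.0051 and -0.09), Drc1 (-0.43, 0.10 and 0.07) and Dnah7b (-0.22, -0.18 and 0.0007) did not follow Foxj1 in any region, nor did Dnah11 (0.11, 0.18 and -0.25). Large regional differences occurred with both patterns. Dnah1, Drc1, Dnah7b and Dnah11 differed strongly between regions, as did Dnah7a, whose correlations were also near 0 (0.06, -0.08 and 0.11). Dnah6 (0.57, 0.35 and 0.35) and Cfap54 (0.53, 0.10 and 0.55) differed strongly too and had positive correlations. Foxj1 itself correlated with the choroid plexus marker mean at 0.07 in cortex, 0.22 in striatum and 0.72 in cerebellum.

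**Figure D5:**
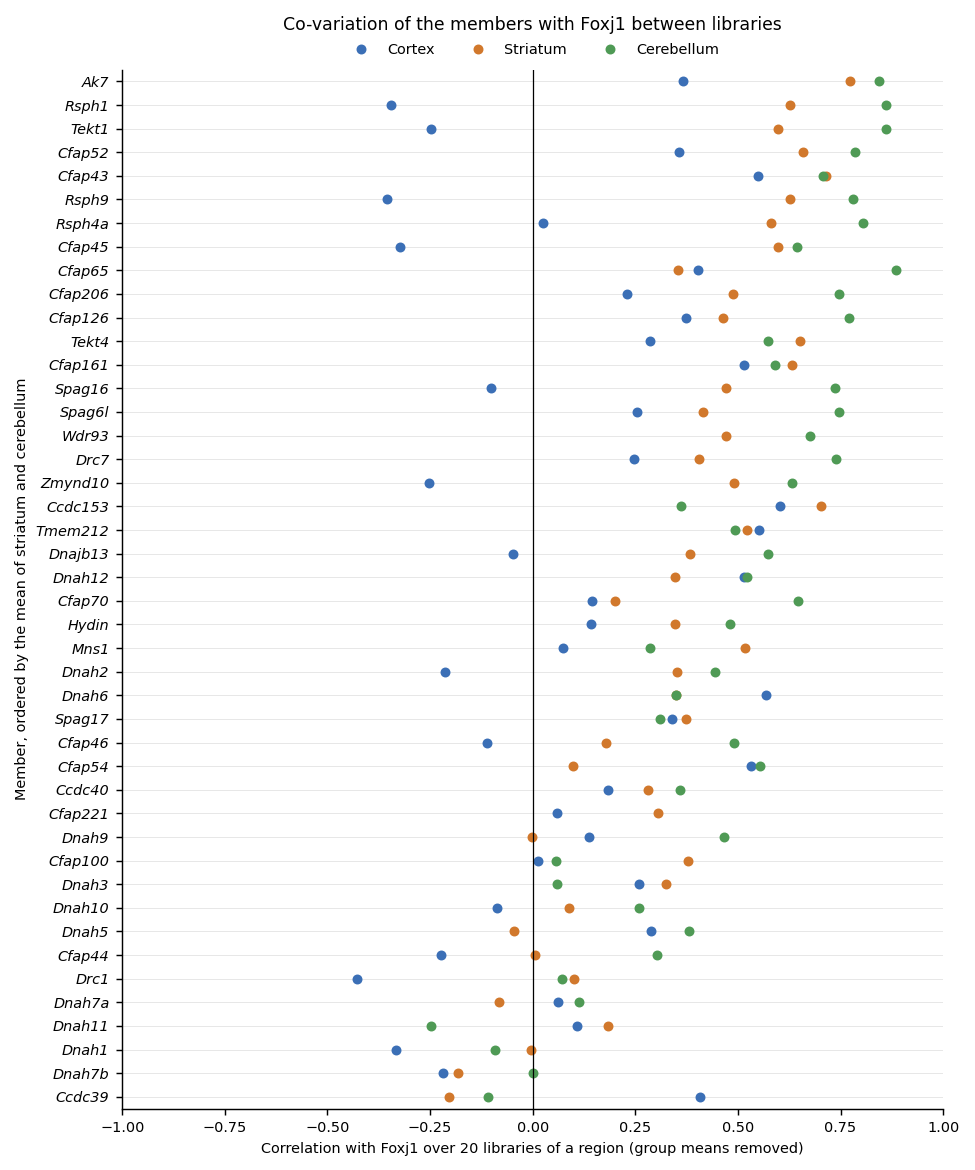
Correlation of each other member with Foxj1 over the 20 libraries of a region, after removal of the means of sex and genotype. Most cerebellum and striatum points lie right of 0. Drc1, Dnah7a, Dnah11, Dnah1, Dnah7b and Ccdc39 lie at the bottom, with values up to 0.18 (Dnah11 in striatum) in striatum and cerebellum.

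Ranked by the mean correlation with Foxj1 over the 3 regions among 17664 genes, Dynlrb2 came first (0.72), followed by Mlf1 (0.67), Ak7 (0.66), Gm19935 (0.66) and Cfap43 (0.66). Members took 5 of the first 25 places (Ak7, Cfap43, Cfap52, Cfap161 and Ccdc153). The ependymal markers Rarres2 and Mia and the inner arm light chain Dnali1 were also among the 25, at mean correlations of 0.58, 0.57 and 0.64.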

How the data were processed

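Total RNA of pulverised cortex, striatum and cerebellum was sequenced with 150 nt paired reads. The expected counts per gene, log2 CPM values and precision weights (a score) are those the authors deposited. Per the submitters' processing notes, Salmon, edgeR and limma were used. The sources used here do not state tool versions, genome build, annotation or strand setting. Of 20423 gene identifiers, 20403 (99.9%) matched GENCODE M21 on GRCm38. The deposited log2 values equalled log2(count + 0.5) less a constant per library, to within 1.03e-13.

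Counts were rounded, filtered by edgeR's filterByExpr, scaled by TMM and tested by edgeR's quasi-likelihood test over all genes with Benjamini-Hochberg adjustment, calling adjusted p under 0.05 (edgeR 4.0.16, limma 3.58.1, DESeq2 1.42.0, R 4.3.3). Genotype, sex and their interaction were fitted within each region, and regions over all 60 libraries. The scripts were tested on simulated data. The filter removed Wdr93 in cortex and Cfap221 in cerebellum and kept all 45 members in the fit of regions and in striatum. Library totals ran from 26091911 to 28125224. The 95% intervals are the log2 difference with a normal quantile of its SE on either side. Members and lists were chosen with earlier results of these data known. Named members were, in each of 8 roles, the 2 with the highest mean CPM per kilobase, with Foxj1, Ccdc153 and Tmem212 always included, plus called members or those of smallest p; other genes were named after their values were seen. Alternatives were DESeq2, limma on the deposited log2 values and weights, no filter, a replicate block, covariates and leaving out each library. Leaving out the 2 cerebellum libraries low in Ttr was chosen after seeing the data.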

Additional observations from a re-analysis of the deposited data

Results flagged for a closer look

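For the 17 named members and the members' mean, 108 groups of 10 libraries were checked for a library far from the other 9, and 13 held one. A chance rate of about 1 in 20 groups holds for independent, normally distributed values. These groups share libraries and most hold CPM without a log scale, so no excess over chance is read from the count. In wild-type cortex, Dnah11 reached 8.01 CPM in male 2, and in PON2-deficient cortex Dnah1 reached 12.7 CPM in male 1. In wild-type striatum, male 3 stood high for Dnah1 (21.1 CPM) and Rsph9 (10.2 CPM), and female 5 for Ccdc153 (4.53 CPM). In PON2-deficient striatum, male 5 stood high for Ccdc153 (6.96 CPM) and Rsph9 (15.4 CPM), and female 3 for Drc1 (19.2 CPM), while the members' mean log2 CPM was lowest in male 1 (0.94). In wild-type cerebellum, Ccdc153 reached 3.54 CPM in female 3 and Rsph9 5.91 CPM in male 4, and Cfap46 was low at 1.14 CPM in male 2. In PON2-deficient cerebellum, Ccdc153 reached 1.63 CPM in female 2. The mean precision weight of striatum PON2-deficient male 5 was 0.0527 of the median over libraries.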

How the results depend on the processing

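The count of members called by genotype in cortex was 0 with edgeR, 4 with DESeq2 and 1 (Dnajb13, log2 -1.57) with the replicate block, and ranged from 0 to 1 when 1 library was left out (Dnajb13 without wild-type female 1, Cfap161 without PON2-deficient female 5 and without wild-type male 3). These counts come from a contrast on which the members were chosen and carry no weight, and the cause was not tested. The counts for genotype in striatum and cerebellum, for sex and for the interaction stayed at 0 under every alternative run. The median genotype difference kept its sign when each library was left out, from -0.28 to -0.15 in cortex, 0.20 to 0.32 in striatum and -0.30 (without PON2-deficient male 3) to -0.12 (without PON2-deficient male 4) in cerebellum. Under the other alternatives it ran from -0.24 to -0.14, 0.20 to 0.28 and -0.21 to -0.04. With the replicate block the medians were -0.23, 0.28 and -0.17. The members were chosen in part on the sign in cortex and striatum, so a kept sign there carries no weight. Equal replicate numbers did not meet the rule for pairing, since 5 of 30 pairs of genotypes and 12 of 60 pairs of regions correlated above 0.1. Across regions, 35 of 60 libraries nevertheless correlated best with their own number, a hint that regions may share mice, which the region tests do not take into account; with the block, 133 of 135 region results kept their side of the threshold and 2 (Drc7 striatum against cortex, Tekt4 cerebellum against cortex) lost the call. The block cannot estimate sex. None of the 135 single-member region results reversed under any alternative run, but calls were lost for 8 without the libraries numbered 5, 7 without those numbered 3, 5 without 4, 3 without 1 and 2 without 2, for 4 with limma and for 2 without striatum PON2-deficient male 5 (Foxj1 cerebellum against striatum, Drc7 striatum against cortex). The depth leaves members under 1 CPM with wide errors.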
